A study of Mus musculus with 9 samples.

Results

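The genes described here are 36 genes of the interferon response and of antigen presentation, read across 3 groups of newborn mouse cortex. They were chosen by name, and each of the 36 had a row in both deposited tables, which hold 22496 genes for ShhN IUE with wild type and 23624 genes for SmoM2 with wild type. They comprise 3 sensors of viral RNA, 5 signal transducers or transcription factors, 11 antiviral effectors, and Isg15 with 2 genes of its attachment or removal. The others are 1 chemokine, 6 other interferon-induced genes, the 3 class I chains H2-K1, H2-D1 and B2m, and 4 genes that supply peptides to class I molecules. RNA of whole dissected cortex at postnatal day 0 was sequenced in 9 libraries, 3 in each group, from mice of a background mixed from C57BL/6J, 129S6 and CD1. The ShhN IUE mice had been electroporated in utero with ShhN, the secreted N-terminal fragment that carries the activity of Sonic hedgehog (SHH). As the labels name no electroporated control, the effects of ShhN and of electroporation cannot be told apart. The SmoM2 mice carried hGFAP-Cre, a Cre recombinase driven by the human GFAP promoter and active in cortical progenitors, with SmoM2f/+, a conditional allele of an activated Smoothened, the transducer of SHH. Wild-type littermates carried neither, and the same 3 wild-type libraries stand in both tables. By its title, the series asks how SHH from outside the cell regulates the lineage progression of cortical stem cells.

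Interferons are secreted when sensors such as Ddx58 and Ifih1 recognise viral nucleic acid and activate the factors Irf3 and Irf7. They bind receptors on neighbouring cells, where a complex that holds STAT2 and IRF9 turns on genes carrying the interferon-stimulated response element (ISRE). The products block viral replication, attach the ubiquitin-like protein ISG15 to other proteins, and raise class I molecules, which hold peptides at the cell surface for T cells; in the healthy brain neurons carry few class I molecules, and microglia and vessel cells respond to interferon most readily.

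Library totals were 15376071 to 19604672 counts in ShhN IUE, 23625702 to 26923127 in SmoM2 and 18610507 to 21694348 in wild type (18617404 to 21632586 in the table with SmoM2). The SHH target Gli1 rose 5.42-fold in ShhN IUE (edgeR quasi-likelihood test with Benjamini-Hochberg adjustment, adjusted p = 0.00369) and 6.21-fold in SmoM2 (adjusted p = 0.000159). For Shh itself the counts were 51, 52 and 455 in ShhN IUE libraries 1, 2 and 3, against 36, 62 and 31 in wild type, and did not pass (adjusted p = 0.0693). By raw counts, which are not scaled for library depth, only library 3 of ShhN IUE stood above every wild-type library for Shh. Library 2 of ShhN IUE had a smaller total than wild-type library 2 (16831888 against 21694348 counts). Smo rose 3.59-fold in SmoM2 (edgeR adjusted p = 0.00027) and also 1.89-fold in ShhN IUE (adjusted p = 0.00558). In SmoM2 Shh fell to 0.181 of its wild-type level (adjusted p = 0.00697). The labels do not say that the libraries of a group came from separate animals, so each p-value reflects only how these samples vary, which may be technical. Markers of cortical neurons were present in every group. Of 8, 3 fell and 1 (Tubb3) rose in ShhN IUE, against 17.2% and 16.1% of all tested genes. In SmoM2 3 fell, against 9.29% of all tested genes. The 8 summed to 5507, 5679 and 4358 CPM in ShhN IUE, against 5238, 4204 and 4565 CPM in wild type. In SmoM2 they summed to 5007, 4463 and 4649 CPM, against 5101, 4461 and 4855 CPM in wild type. Tbr1, a factor of deep-layer neurons, fell by 0.81 ± 0.18 on the log2 scale in ShhN IUE (adjusted p = 0.0114) and by 1.00 ± 0.10 in SmoM2 (adjusted p = 0.000655). Of 7 radial glia markers, those of the cortical stem cells, 5 rose in ShhN IUE and 4 in SmoM2, against 16.1% and 9.59% of all tested genes. Their sums were 1075 to 1312 CPM in ShhN IUE and 1100 to 1206 CPM in SmoM2, against 602 to 894 CPM in wild type. In whole tissue, more cells of a type and more RNA per cell cannot be told apart.

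The ISRE was looked for in the promoters that RefSeq gives for 28 of the 36 genes on GRCm38.p6, each running from 250 bases before the gene start to 50 bases after it. No entry was given for Dhx58, Mx1, Mx2, Usp18, Ifi27, Rtp4, Parp14 and Tap2. The letters searched, GAAANNGAAA on either strand, were read from the promoter of Isg15, where the unit GAAA recurs after a gap of 2 bases more often than any other 4-letter unit; they match the known core of the ISRE. They stood in the promoters of 13 of the 28 genes (46.4%), Isg15 included, against 3.99% of 27025 genes. Stretches of 30 bases are shown for 6 of the 13, chosen because the results below turn on them or because they are textbook interferon targets that were hardly detected here. The capitals mark the ISRE letters, which read TTTCNNTTTC where they lie on the other strand, and every stretch is written along its gene's own strand; in Ifit1 and Ifitm3 a second match is cut by the start of the stretch.
Stat2, chr10:128270261-128270290 (+): cttcacgcaccctggTTTCAGTTTCctttc
Isg15, chr4:156200870-156200899 (-): tagGAAAAGGAAACCGAAACAGAAAatagc
B2m, chr2:122147533-122147562 (+): actttataagaacatGAAACTGAAAatggg
Ifitm3, chr7:141010711-141010740 (-): AAAGGAAActtctgaGAAACCGAAActgcc
Ifit1, chr19:34640789-34640818 (+): ACTTTCcagtctcagTTTCAGTTTCtcact
Rsad2, chr12:26456558-26456587 (-): tggctctggtccaacTTTCATTTTCagaaa
In Isg15 the letters occurred 3 times in an overlapping run, the last of them starting 66 bases before the gene start. Of the 11 genes that rose in ShhN IUE, 9 had a promoter entry, and Stat2 and Isg15 were those with the letters. A match of letters is no measure of binding. Variants of these letters were not searched, so a promoter without a match may still hold an ISRE. The whole promoters of Stat2, Irf3 and H2-D1 follow, since Stat2 and Irf3 rose in both groups and H2-D1 changed most among the well-expressed genes. Capitals mark the ISRE letters, which the promoters of Irf3 and H2-D1 do not hold in this window.
Stat2, chr10:128270248-128270547 (+): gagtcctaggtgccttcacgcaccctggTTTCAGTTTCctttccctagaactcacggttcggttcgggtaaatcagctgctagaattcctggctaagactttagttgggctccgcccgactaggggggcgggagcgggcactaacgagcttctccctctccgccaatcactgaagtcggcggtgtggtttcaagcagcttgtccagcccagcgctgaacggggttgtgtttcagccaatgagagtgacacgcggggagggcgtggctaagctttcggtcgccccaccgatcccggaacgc
Irf3, chr7:44997398-44997697 (+): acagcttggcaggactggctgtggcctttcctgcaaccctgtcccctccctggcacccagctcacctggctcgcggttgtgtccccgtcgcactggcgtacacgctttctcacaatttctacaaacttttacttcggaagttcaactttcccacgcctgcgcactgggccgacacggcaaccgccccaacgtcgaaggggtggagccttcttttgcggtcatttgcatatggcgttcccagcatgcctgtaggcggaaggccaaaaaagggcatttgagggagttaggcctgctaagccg
H2-D1, chr17:35262844-35263143 (+): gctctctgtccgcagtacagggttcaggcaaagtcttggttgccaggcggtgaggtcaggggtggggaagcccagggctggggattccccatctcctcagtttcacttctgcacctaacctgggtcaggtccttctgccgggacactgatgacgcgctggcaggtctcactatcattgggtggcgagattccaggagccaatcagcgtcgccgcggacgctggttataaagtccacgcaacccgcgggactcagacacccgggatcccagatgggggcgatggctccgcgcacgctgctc

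Most of the 36 genes were expressed at low levels. Per length, 25 of them averaged under 1 FPKM in wild type, 22 in ShhN IUE and 24 in SmoM2. The highest in wild type was Ifitm2, a membrane protein that hinders viral entry, at 23.2 FPKM in ShhN IUE, 23.6 FPKM in SmoM2 and 28.2 FPKM in wild type. B2m, the light chain of class I molecules, followed with 18.7 FPKM in ShhN IUE, 21.7 FPKM in SmoM2 and 13.6 FPKM in wild type. Stat2 and Irf3 came next in wild type, at 6.88 and 4.70 FPKM. H2-D1, a class I heavy chain, averaged 19.8 FPKM in ShhN IUE, 6.999 FPKM in SmoM2 and 3.39 FPKM in wild type. By these means it was second of the 36 in ShhN IUE and sixth in wild type. At the low end stood textbook interferon targets: in wild type Cxcl10, Psmb9 and Mx1 averaged 0.0301, 0.0284 and 0.0207 FPKM.

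**Figure D1:**
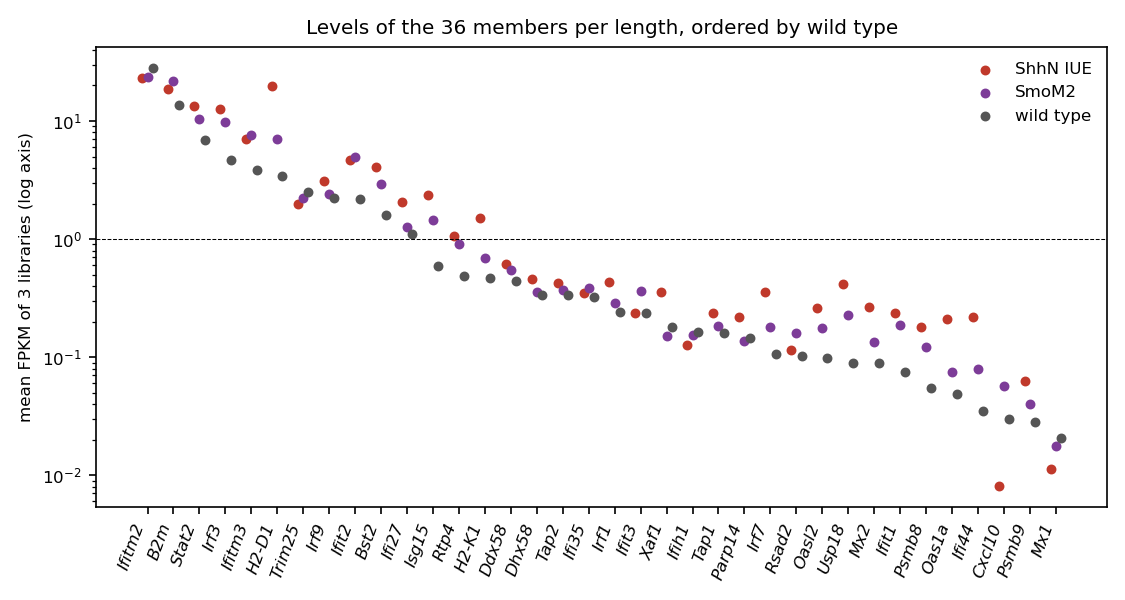
Mean FPKM of 3 libraries per group (log axis) for the 36 genes, ordered by their wild-type level in the table with ShhN IUE, with ShhN IUE, SmoM2 and wild type as separate points and a dashed line at 1 FPKM. The points of 25 genes lie below the line in wild type, and the largest gaps between ShhN IUE and wild type are those of H2-D1 among the well-expressed genes and of Ifi44 among the low ones.

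In ShhN IUE 11 of the 36 genes rose and none fell, 19 did not pass the test, and 6 had too few counts to be tested (Ifit1, Oas1a, Mx1, Rsad2, Cxcl10 and Psmb9). Of all 16180 genes tested there 16.1% rose and 17.2% fell at the same threshold, an adjusted p under 0.05. At an unadjusted p under 0.05, 14 of the 30 tested genes were higher and 0 lower, against 22.2% and 22.9% of all genes tested. At the adjusted threshold DESeq2 and limma-voom also called 0 lower. The 30 had a median log2 fold change of 0.88, against 0.00 for all genes tested, and 26 of them were positive. Ifi44, Usp18 and Psmb8 passed the count filter only through their ShhN IUE libraries, which favours a positive sign and no overlap with wild type. All genes tested were not matched to the 30 for level. In 13 of the 30 every ShhN IUE library lay above every wild-type library, against 24.5% of all genes tested, and in 1, Ifitm2, every ShhN IUE library lay below, against 24.9% of all. In SmoM2 3 of the 36 genes rose (Irf3, Stat2 and Ifit2) and none fell, against 9.59% and 9.29% of 16485 tested genes, with 27 not passing and 6 not tested (Ifit1, Oas1a, Mx1, Cxcl10, Psmb8 and Psmb9). The 3 of 30 that rose are a share near that of all genes. At an unadjusted p under 0.05, 10 were higher and 0 lower, against 16.7% and 17% of all genes tested. At the adjusted threshold the other tools again called 0 lower in SmoM2. The median of the 30 tested there was 0.52, against -0.01 for all genes, with 24 positive. Ifi44 passed the filter there only through its SmoM2 libraries. In 9 of the 30 the SmoM2 libraries lay above wild type without overlap, against 20.4% of all genes tested, and in 1, Ifitm2, below it, against 19.7%. Both comparisons use the same wild-type libraries, so they are not independent of each other.

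**Figure D2:**
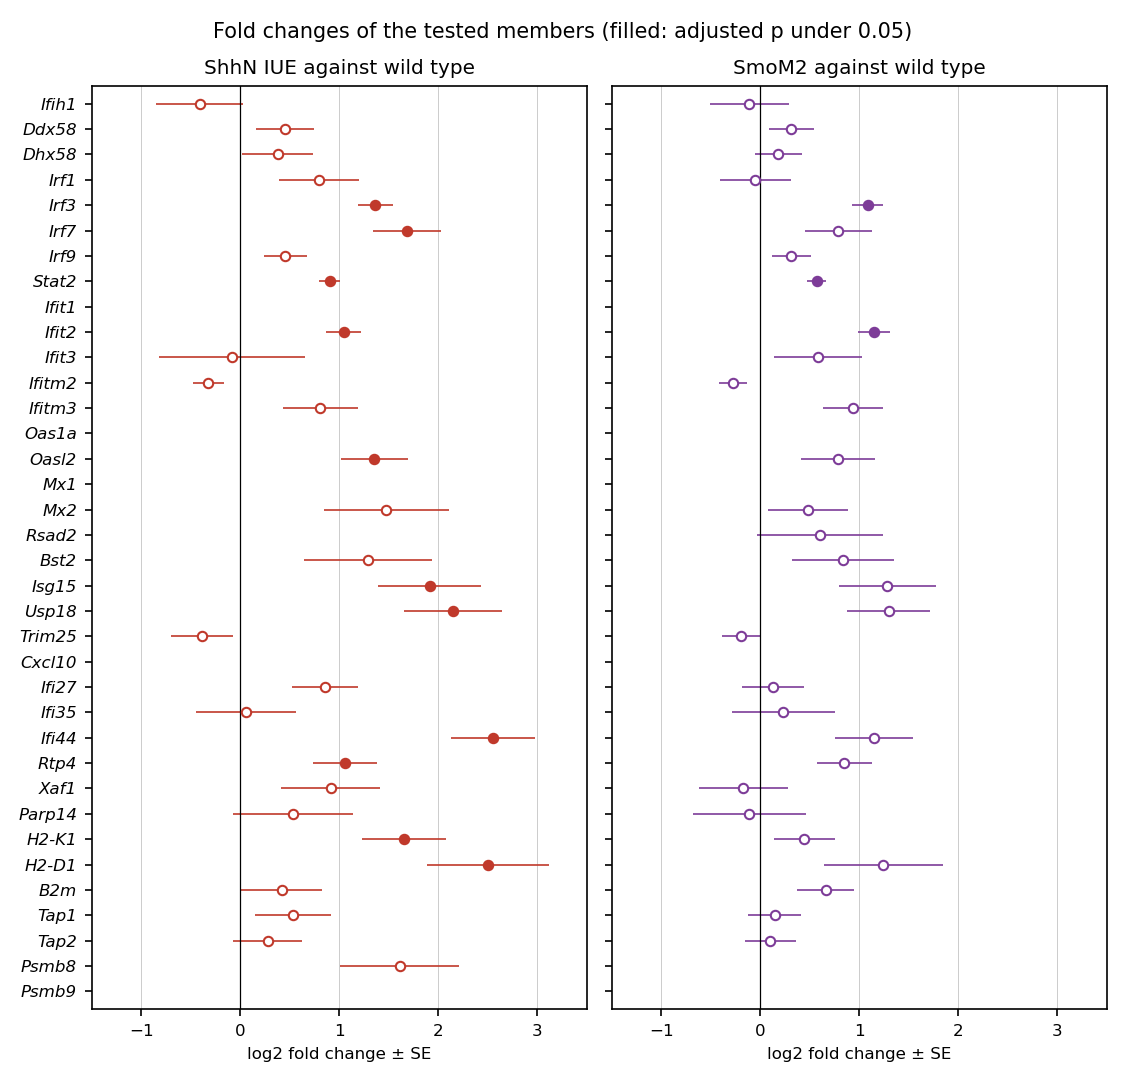
Log2 fold change ± SE against wild type for ShhN IUE (left) and SmoM2 (right), ordered by role, with filled points where the adjusted p was under 0.05 and no point where a gene was not tested. Of the 30 tested genes in each panel, 26 lie right of 0 in ShhN IUE with 11 filled, and 24 lie right of 0 in SmoM2 with 3 filled.

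Among the transcription factors, Irf3, which carries the signal of RNA and DNA sensors to the interferon genes, rose in both groups. Values by library are given in order 1, 2, 3 as CPM, the count relative to the TMM-scaled library total. Irf3 had 29.0, 25.8 and 33.0 CPM in ShhN IUE, against 12.8, 12.1 and 9.12 CPM in wild type. It had 24.2, 21.9 and 22.7 CPM in SmoM2, against 12.2, 11.7 and 8.59 CPM in the same wild-type libraries as read in the SmoM2 table. Every library of both groups lay above every wild-type library. The log2 fold change was 1.37 ± 0.17 (SE) in ShhN IUE (edgeR adjusted p = 0.00153) and 1.08 ± 0.16 in SmoM2 (adjusted p = 0.0032). Irf3 lies at chr7:44997648-45002847 in the deposited tables and overlaps Bcl2l12, a gene of the other strand, in GENCODE M21. Bcl2l12 also rose, by 1.39 ± 0.25 on the log2 scale in ShhN IUE (adjusted p = 0.00543) and by 0.97 ± 0.23 in SmoM2 (adjusted p = 0.0212). Of the 50-base stretches of the longest coding Irf3 transcript, 0.0% occur in another gene. No source used here says whether counting used strand, and the part of Bcl2l12 reads in the Irf3 counts was not tested. Bcl2l12 had a mean of 4.74 CPM in ShhN IUE and 1.80 CPM in wild type, below Irf3 in both.

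Stat2, a subunit of the complex that binds the ISRE, had the smallest SE of the tested members in both comparisons. It had 55.4, 62.7 and 58.0 CPM in ShhN IUE, against 31.3, 32.6 and 30.1 CPM in wild type. In SmoM2 it had 42.9, 47.1 and 48.5 CPM, against 31.1, 32.5 and 29.9 CPM in wild type. The 3 groups were arranged without overlap, ShhN IUE highest and wild type lowest. The log2 fold change was 0.91 ± 0.11 in ShhN IUE (edgeR adjusted p = 0.00126) and 0.57 ± 0.09 in SmoM2 (adjusted p = 0.00542). Its row spans chr10:128270576-128292849, and the ISRE letters of its promoter shown above begin 222 bases before the RefSeq gene start.

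Irf7, the factor that amplifies interferon production and is itself induced by interferon, had 2.24, 2.14 and 2.38 CPM in ShhN IUE, against 0.519, 1.0 and 0.549 CPM in wild type. The groups did not overlap, and the rise was 1.69 ± 0.35 on the log2 scale (edgeR adjusted p = 0.00893). In SmoM2 Irf7 had 1.21, 1.36 and 0.882 CPM, against 0.516, 0.910 and 0.547 CPM in wild type, with SmoM2 library 3 below wild-type library 2. That difference did not pass (0.78 ± 0.34, adjusted p = 0.145). Irf7 overlaps Phrf1 of the other strand, which did not pass in either comparison (adjusted p = 0.432 in ShhN IUE and 0.602 in SmoM2). Irf9, the DNA-binding subunit of the ISRE-binding complex, did not pass, with log2 differences of 0.46 ± 0.22 in ShhN IUE (adjusted p = 0.138; 0.69 and 0.0447 without wild-type library 3) and 0.31 ± 0.20 in SmoM2 (adjusted p = 0.304). Irf1, a factor induced mainly by interferon gamma, did not pass either (0.80 ± 0.40 in ShhN IUE, adjusted p = 0.16, and -0.05 ± 0.36 in SmoM2, adjusted p = 0.936). The RNA sensors Ddx58 and Ifih1 and their relative Dhx58 had log2 differences of -0.41 to 0.45 in ShhN IUE and -0.11 to 0.31 in SmoM2, and none of the 3 passed in either group.

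Of the 11 antiviral effectors, Ifit2 and Oasl2 rose in ShhN IUE and Ifit2 in SmoM2. Ifit2, an RNA-binding protein that restrains viral translation, had 21.0, 17.3 and 21.8 CPM in ShhN IUE, against 8.30, 11.1 and 9.67 CPM in wild type. In SmoM2 it had 19.5, 24.4 and 20.1 CPM, against 8.21, 11.1 and 9.63 CPM in wild type. All 6 libraries of ShhN IUE and SmoM2 lay above all wild-type libraries. The log2 fold change was 1.05 ± 0.17 in ShhN IUE (edgeR adjusted p = 0.00405) and 1.14 ± 0.16 in SmoM2 (adjusted p = 0.00295). Its relatives Ifit1 and Ifit3 were near the floor of detection. Ifit1 had 8, 4 and 19 counts in ShhN IUE and 17, 9 and 12 in SmoM2, against 2, 6 and 4 in wild type, and was not tested. Ifit3 shares 51.2% of its 50-base stretches with Ifit3b and did not pass in ShhN IUE (-0.08 ± 0.74, adjusted p = 0.939) or in SmoM2 (0.58 ± 0.44, adjusted p = 0.399).

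Oasl2, a member of the 2'-5'-oligoadenylate synthetase family, had 2.90, 1.96 and 3.32 CPM in ShhN IUE, against 0.985, 1.36 and 0.824 CPM in wild type. The groups did not overlap and the rise was 1.35 ± 0.34 (edgeR adjusted p = 0.0179); the call was lost without library 1 or 3 of ShhN IUE or library 1 or 3 of wild type, where adjusted p reached 0.064. In SmoM2 Oasl2 did not pass (0.78 ± 0.38, adjusted p = 0.185). Its family member Oas1a had 0 to 10 counts in every library of the table and was not tested. Mx1, a GTPase that blocks influenza viruses, was at 0 to 6 counts, and its relative Mx2 did not pass (1.48 ± 0.63 in ShhN IUE, adjusted p = 0.106), though it did without ShhN IUE library 2 (1.88, adjusted p = 0.0444). Rsad2, which makes an antiviral nucleotide, had 9, 5 and 14 counts in ShhN IUE and 32, 13 and 15 in SmoM2, against 3, 23 and 5 in wild type.

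None of the membrane effectors Ifitm2, Ifitm3 and Bst2 passed in either group. Ifitm2 had 15.4, 12.3 and 15.3 CPM in ShhN IUE and 16.3, 14.6 and 13.2 CPM in SmoM2, against 17.2, 19.99 and 16.6 CPM in wild type in the table with ShhN IUE. Every library of both groups lay below every wild-type library, yet neither difference passed (-0.32 ± 0.16, edgeR adjusted p = 0.15, and -0.28 ± 0.14, adjusted p = 0.202). Ifitm2 shares 48.5% of its 50-base stretches with other genes. Ifitm3 had 4.02, 3.26 and 6.70 CPM in ShhN IUE and 5.50, 3.94 and 5.79 CPM in SmoM2, against 1.92, 3.82 and 2.20 CPM in wild type. Wild-type library 2 overlapped the ShhN IUE libraries and lay just under the SmoM2 ones, and neither difference passed (0.81 ± 0.38, adjusted p = 0.132, and 0.94 ± 0.30, adjusted p = 0.0644). Bst2, which tethers budding virions to the cell, had 1.58, 2.14 and 5.38 CPM in ShhN IUE, against 0.622, 2.36 and 0.659 CPM in wild type, and did not pass (adjusted p = 0.156). Without wild-type library 2 Bst2 passed in ShhN IUE (2.22, adjusted p = 0.0415), and Ifitm3 and Bst2 passed in SmoM2 (1.31 and 1.78, adjusted p = 0.018 and 0.0219).

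The ISG15 system showed large folds at low counts. Isg15, the ubiquitin-like protein induced by interferon, had 1.63, 1.72 and 1.88 CPM in ShhN IUE (32, 29 and 30 counts), against 0.311, 0.863 and 0.165 CPM in wild type (6, 19 and 3 counts). The ShhN IUE libraries were close to each other and above all wild-type libraries, of which library 2 was highest. The rise was 1.91 ± 0.52 on the log2 scale (edgeR adjusted p = 0.0251). Without wild-type library 2 it was 2.83, and without any of the ShhN IUE libraries or wild-type library 1 or 3 the call was lost, with adjusted p up to 0.0794. In SmoM2 Isg15 had 1.28, 0.932 and 1.03 CPM, all above wild type, and did not pass (1.28 ± 0.49, adjusted p = 0.105); without wild-type library 2 it passed (2.16, adjusted p = 0.0179).

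Usp18, the protease that removes ISG15 and dampens receptor signalling, had 1.37, 0.950 and 1.94 CPM in ShhN IUE, against 0.156, 0.5 and 0.275 CPM in wild type. It rose by 2.15 ± 0.49 without overlap between groups (edgeR adjusted p = 0.0132), and the call was lost without wild-type library 3 (adjusted p = 0.0515). In SmoM2 the libraries also lay above wild type, at 0.771, 0.847 and 0.729 CPM, and the difference missed the threshold (1.29 ± 0.42, adjusted p = 0.0651). Without wild-type library 2 it passed (1.85, adjusted p = 0.0285). Trim25, a ligase for ISG15 and ubiquitin that activates Ddx58, had log2 differences of -0.39 ± 0.31 in ShhN IUE (adjusted p = 0.368) and -0.19 ± 0.20 in SmoM2 (adjusted p = 0.535).

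Ifi44, an interferon-induced gene of the cytoplasm, had the largest fold change of the members that were tested in ShhN IUE. It had 26, 22 and 35 counts in ShhN IUE, against 6, 7 and 3 in wild type, which is 1.32, 1.31 and 2.19 CPM against 0.311, 0.318 and 0.165 CPM. The groups did not overlap, and the rise was 2.55 ± 0.43 (edgeR adjusted p = 0.00399). In SmoM2 it had 0.550, 0.508 and 0.729 CPM, above wild type in every library, and did not pass (1.14 ± 0.39, adjusted p = 0.0762). Rtp4, an interferon-induced chaperone of membrane receptors, had 1.63, 1.36 and 1.94 CPM in ShhN IUE, against 0.726, 0.954 and 0.659 CPM in wild type. It rose by 1.06 ± 0.32 without overlap (adjusted p = 0.0364), but the call was lost in 9 of 13 other settings, among them each of the 6 left-out libraries, with adjusted p up to 0.108. The remaining induced genes Ifi27, Ifi35, Xaf1 and Parp14 had log2 differences of 0.06 to 0.91 in ShhN IUE and -0.17 to 0.23 in SmoM2, and none passed in either group; without wild-type library 2 Parp14 passed in ShhN IUE (1.58 in place of 0.54, adjusted p = 0.049). The chemokine Cxcl10, which draws T cells, had 1, 0 and 1 counts in ShhN IUE and 7, 5 and 9 in SmoM2, against 2, 6 and 1 in wild type.

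**Figure D3:**
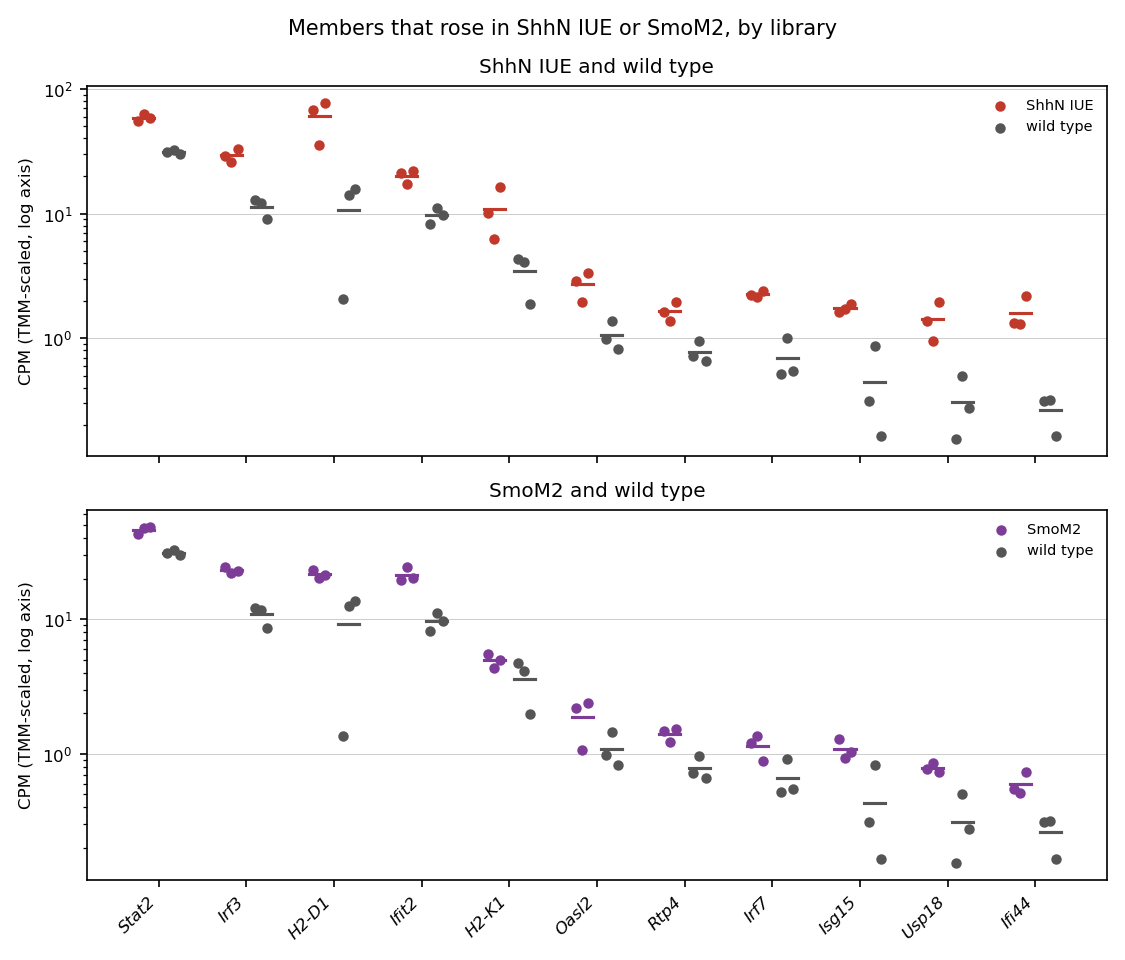
CPM by library (log axis) of the 11 genes that rose in ShhN IUE, with ShhN IUE left of wild type (top) and SmoM2 left of wild type (bottom); points are libraries and bars are means of 3. In the top panel the 2 sets of points do not overlap for any of the 11 genes, and in the bottom panel they overlap for H2-K1, Oasl2 and Irf7.

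Of the 3 class I chains, the heavy chains H2-D1 and H2-K1 rose in ShhN IUE, B2m did not pass, and none of the 3 passed in SmoM2. H2-D1 had 67.7, 35.8 and 77.3 CPM in ShhN IUE (1332, 603 and 1235 counts), against 2.08, 14.1 and 15.7 CPM in wild type (40, 310 and 285 counts). Every ShhN IUE library was above every wild-type library, and wild-type library 1 was far below the other two. The rise was 2.51 ± 0.61 on the log2 scale (edgeR adjusted p = 0.0168). In SmoM2 H2-D1 had 23.1, 20.2 and 21.4 CPM, against 1.34, 12.5 and 13.6 CPM in wild type. The groups again did not overlap, yet the difference did not pass (1.24 ± 0.60, adjusted p = 0.186); without wild-type library 1 it was 0.73 and passed (adjusted p = 0.0105).

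H2-K1, the other heavy chain among the members, had 10.02, 6.23 and 16.3 CPM in ShhN IUE, against 4.36, 4.09 and 1.87 CPM in wild type. ShhN IUE library 3 was highest, no library of the groups overlapped, and the rise was 1.65 ± 0.42 (edgeR adjusted p = 0.02). It lost its call when ShhN IUE library 3 was left out (log2 1.25, adjusted p = 0.0502) and likewise for wild-type library 3 (log2 1.36, adjusted p = 0.0546). In SmoM2 H2-K1 had 5.47, 4.36 and 4.99 CPM, against 4.75, 4.14 and 1.97 CPM in wild type, overlapped and did not pass (0.44 ± 0.31, adjusted p = 0.351). B2m had 13.4, 9.38 and 24.4 CPM in ShhN IUE, against 7.002, 17.4 and 10.8 CPM in wild type, so that wild-type library 2 exceeded both ShhN IUE library 1 and library 2. In SmoM2 it had 20.3, 18.0 and 17.3 CPM, against 6.97, 17.4 and 10.8 CPM in wild type. B2m did not pass in ShhN IUE (0.42 ± 0.41, adjusted p = 0.463) or in SmoM2 (0.66 ± 0.29, adjusted p = 0.148); without wild-type library 2 it passed in SmoM2 (1.06, adjusted p = 0.0174).

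Heavy-chain genes are very similar to one another and vary strongly between mouse strains. Of the 50-base stretches of the longest coding H2-D1 transcript 14.3% occur in other genes, most of them in H2-Q1. Of those of the longest coding H2-K1 transcript 8.79% do, most of them in H2-D1. No source used here says how the authors assigned such reads, and whether the mice of this mixed background differed in their class I alleles was not tested. Among other class I genes, H2-Q4 rose by 2.95 ± 0.75 in ShhN IUE (edgeR adjusted p = 0.0195) and by 2.45 ± 0.49 in SmoM2 (adjusted p = 0.0115), whereas H2-T23 fell by 2.40 ± 0.73 in ShhN IUE (adjusted p = 0.0376).

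None of the peptide suppliers passed. The peptide transporters Tap1 and Tap2 had log2 differences of 0.53 ± 0.38 and 0.28 ± 0.35 in ShhN IUE (edgeR adjusted p = 0.31 and 0.568) and of 0.14 ± 0.27 and 0.10 ± 0.26 in SmoM2 (adjusted p = 0.75 and 0.827). Psmb8, a catalytic subunit of the immunoproteasome, had 11, 9 and 15 counts in ShhN IUE, against 1, 8 and 4 in wild type, and did not pass (1.61 ± 0.60, adjusted p = 0.0713). Psmb9, another such subunit, had 9, 8 and 4 counts against 4, 5 and 2 and was not tested. The constitutive subunit Psmb5, which Psmb8 replaces, averaged 37.1 FPKM in ShhN IUE and 27.7 FPKM in wild type, and Psmb8 0.179 FPKM in ShhN IUE and 0.0549 FPKM in wild type. Psmb5 did not pass (0.38 ± 0.14 in ShhN IUE, adjusted p = 0.069, and 0.10 ± 0.13 in SmoM2, adjusted p = 0.63), and none of 7 constitutive beta subunits did in either group.

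The libraries of a group differed together across these genes. Wild-type library 2 was the highest of the wild-type libraries for 25 of the 30 tested genes in the table with ShhN IUE, against 29.2% of all tested genes there, and for 26 of 30 in the table with SmoM2, against 30.6%. It was the lowest for none. ShhN IUE library 3 was the highest of its group for 26 of the 30, against 39.4% of all tested genes. Those 2 libraries also held the most meningeal RNA: 8 meningeal markers summed to 19.1, 29.6 and 795 CPM in ShhN IUE and 418, 205 and 310 CPM in SmoM2, against 13.5, 502 and 182 CPM in wild type. Meninges are the fibroblast-rich coverings of the brain, and none of their 8 markers passed in either group. Aldh1a2 was at 0 in ShhN IUE libraries 1 and 2 and wild-type library 1. ShhN IUE library 3 also had the most counts of its group for Shh (455, against 51 and 52) and Gli1 (1100, against 512 and 466). The part of meningeal RNA or of SHH activity in these shared shifts was not tested.

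Markers of microglia and macrophages, 20 in number, summed to 153, 138 and 201 CPM in ShhN IUE and 198, 161 and 150 CPM in SmoM2, against 78.1, 159 and 96.8 CPM in wild type. Of these markers 5 rose in ShhN IUE and 3 in SmoM2, and wild-type library 2 lay within the range of both groups. The median log2 fold change of the 20 was 0.65 in ShhN IUE, with 16 positive. It was 0.61 in SmoM2, with 19 positive. The counts of risen markers given here stand against 16.1% of all tested genes in ShhN IUE and 9.59% in SmoM2. The 13 endothelial markers summed to 283, 227 and 457 CPM in ShhN IUE and 309, 276 and 280 CPM in SmoM2, against 199, 333 and 221 CPM in wild type, and 1 rose in ShhN IUE. Of 7 mural cell markers 4 rose in ShhN IUE and none in SmoM2, with sums of 263, 222 and 349 CPM in ShhN IUE against 179, 253 and 184 CPM in wild type. Of 11 markers of T, NK and B cells, the 5 with a row in the table with ShhN IUE summed to 0.305, 0.237 and 0.689 CPM in ShhN IUE, against 0.208, 1.45 and 0.385 CPM in wild type. The part of these cells in the rises of the 11 genes was not tested.

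**Figure D4:**
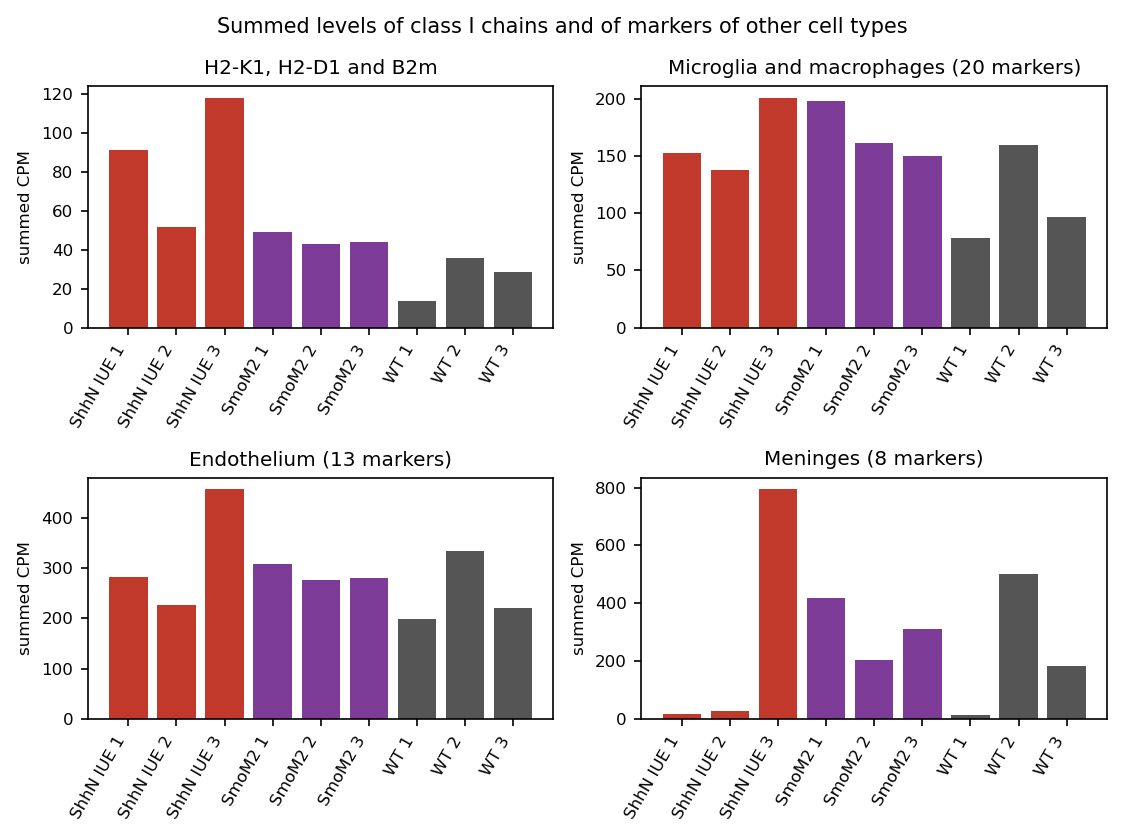
Summed CPM by library of the 3 class I chains and of markers of microglia and macrophages, endothelium and meninges, each on an axis from 0, with wild type as read in the table with ShhN IUE. Class I chains were at 51.4 to 118 in ShhN IUE and 42.6 to 48.9 in SmoM2, against 13.4 to 35.6 in wild type, while the meningeal sum was highest in ShhN IUE library 3 and wild-type library 2.

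SmoM2 was then tested against ShhN IUE directly, over genes whose wild-type counts agreed between the tables within 0.1 on the log2 scale. Of the 36 genes 29 agreed and 25 could be tested, among 12349 genes. None was higher in SmoM2 (8.45% of all genes tested) and 3 were lower (8.07% of all), a share near that of all genes, with a median log2 difference of -0.36 over the 25 genes and of -0.01 over all. At an unadjusted p under 0.05, 7 of the 25 were lower and 0 higher, against 16.5% and 16.2% of all genes tested. At the adjusted threshold DESeq2 and limma-voom called 0 higher. CPM in this fit counts the agreeing genes only. Irf7 averaged 1.75 ± 0.37 CPM in SmoM2 and 3.44 ± 0.17 CPM in ShhN IUE (SD, n = 3 each), a log2 difference of -0.98 ± 0.30 (edgeR adjusted p = 0.0463). Stat2 averaged 70.1 ± 4.32 CPM in SmoM2 and 89.8 ± 5.59 CPM in ShhN IUE (-0.36 ± 0.09, adjusted p = 0.0248), both above the wild-type mean of 47.0 CPM. Ifi44 averaged 0.904 ± 0.176 CPM in SmoM2 and 2.45 ± 0.755 CPM in ShhN IUE (-1.42 ± 0.34, adjusted p = 0.0199). H2-K1 missed the threshold (-1.14 ± 0.36, adjusted p = 0.0535). Leaving out any SmoM2 library left 0 of these calls, leaving out ShhN IUE library 1 or 3 left 1, and the largest count was 4, without wild-type library 3. Irf7 also lost its call under DESeq2 (adjusted p = 0.0596).

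Irf3 and Ifit2, which rose in both groups, were not called different between them. Irf3 averaged 34.9 ± 1.81 CPM in SmoM2 and 44.7 ± 5.25 CPM in ShhN IUE (-0.36 ± 0.14, edgeR adjusted p = 0.107), and Ifit2 32.4 ± 4.003 CPM in SmoM2 and 30.6 ± 3.62 CPM in ShhN IUE (0.08 ± 0.15, adjusted p = 0.752). H2-D1 was not tested in this way, since its wild-type counts summed to 635 in the table with ShhN IUE and 548 in that with SmoM2. Its log2 fold changes against the wild type of its own table were 1.24 in SmoM2 and 2.51 in ShhN IUE. Dhx58, Irf1, Irf9, Mx1, Xaf1 and Psmb8 were left out for the same reason.

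The rest of the pathway was read from lists of genes that are not among the 36, whose counts stand against the 16.1% of all tested genes that rose and 17.2% that fell in ShhN IUE and the 9.59% and 9.29% in SmoM2. Of 7 interferon genes, Ifna2 was in the table with ShhN IUE with 0 counts in each ShhN IUE library and 2, 0 and 0 in wild type, and Ifng was in the table with SmoM2 with 0 counts in each SmoM2 library and 0, 1 and 1 in wild type. Of 12 tested receptors and JAK-STAT genes, Tyk2, a kinase of the interferon receptor, rose in ShhN IUE (0.78 ± 0.18, edgeR adjusted p = 0.0139) and Jak1, its partner, fell (-0.37 ± 0.09, adjusted p = 0.0193). In SmoM2 Jak2 (0.72 ± 0.09, adjusted p = 0.00206) and Stat3 (0.41 ± 0.10, adjusted p = 0.0265) rose and none fell. The receptor chains Ifnar1 and Ifngr1 did not pass, at 0.18 and 0.15 in ShhN IUE (adjusted p = 0.159 and 0.677) and 0.29 and 0.20 in SmoM2 (adjusted p = 0.0708 and 0.543).

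Of 11 tested sensors and adaptors Mavs, the mitochondrial adaptor of Ddx58 and Ifih1, rose in ShhN IUE (1.49 ± 0.42, edgeR adjusted p = 0.0272), as did Ticam1, an adaptor of Toll-like receptors (1.21 ± 0.26, adjusted p = 0.0107); in SmoM2 Mavs rose among 12 tested (1.27 ± 0.37, adjusted p = 0.0473). Of 7 other IRF genes Irf2 rose in both groups (0.80 ± 0.22 in ShhN IUE, adjusted p = 0.0261, and 0.73 ± 0.21 in SmoM2, adjusted p = 0.0429), and Irf8, a factor of microglia and macrophages, rose in ShhN IUE (1.04 ± 0.33, adjusted p = 0.0394).

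Of 31 other interferon-induced genes tested in ShhN IUE 5 rose, a share like the 16.1% of all genes, and 1 fell. The median log2 fold change of this list was 0.44 in ShhN IUE, with 25 of 31 positive. In SmoM2 it was 0.34, with 22 of 32 positive. Those with the smallest adjusted p were Helz2, a helicase coactivator (1.23 ± 0.22, edgeR adjusted p = 0.0053), Pml, the organiser of nuclear bodies (1.38 ± 0.29, adjusted p = 0.0101), Sp100, another component of these bodies (2.96 ± 0.65, adjusted p = 0.011), and Cmpk2, a mitochondrial nucleotide kinase, which fell by 0.60 ± 0.14 (adjusted p = 0.0152). In SmoM2 4 of 32 rose and 2 fell, led by Pml (1.33 ± 0.16, adjusted p = 0.0016), Ube2l6, the conjugating enzyme of ISG15 (1.68 ± 0.32, adjusted p = 0.00981), and Gbp2, a guanylate-binding protein (2.01 ± 0.46, adjusted p = 0.0205), with Cmpk2 falling by 0.49 ± 0.12 (adjusted p = 0.0256). Of 16 other class I genes 4 rose and 2 fell in ShhN IUE and 3 rose in SmoM2. Their median log2 fold change was -0.21 in ShhN IUE, with 7 positive, and 0.25 in SmoM2, with 11 positive. Cd1d1, which presents lipids, rose by 1.34 ± 0.14 in ShhN IUE (adjusted p = 0.000984) and by 1.33 ± 0.16 in SmoM2 (adjusted p = 0.00131). Psme2 and Psme1, subunits of the proteasome activator that interferon gamma induces, rose in ShhN IUE (0.94 ± 0.19 and 0.59 ± 0.13, adjusted p = 0.00847 and 0.0129). Mr1, which presents vitamin metabolites, rose in SmoM2 (2.70 ± 0.40, adjusted p = 0.00341). Of the 2 class II genes tested, Ciita, the master factor of class II, rose in ShhN IUE (1.32 ± 0.37, adjusted p = 0.0271), and H2-DMa, which loads class II molecules, fell in both groups (by 1.20 ± 0.24 in ShhN IUE, adjusted p = 0.0073, and by 0.91 ± 0.18 in SmoM2, adjusted p = 0.0101).

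In the authors' deposited table for ShhN IUE, 9 of the 36 genes are marked as higher and none as lower, and all 9 are among the 11 that rose here. Stat2 and Rtp4 carry no mark in the authors' deposited table, where their q-values are 1.44e-05 and 0.0729. In the authors' deposited table for SmoM2, Irf3 and Ifit2 are marked as higher and none as lower. Stat2 and Ifitm3, with q-values of 0.00371 and 0.043 there, carry no mark.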

How the data were processed

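Cortex RNA of 9 libraries was analysed, grouped by sample title. Per the file headers, the authors deposited per gene the read counts and FPKM values (counts per length and depth) of every library, with a p-value and q-value for their own comparison. Per the submitters' processing notes, the tools were HISAT2, StringTie and edgeR, with GRCm38.p4 and mm10 as builds; versions, strand use and the treatment of shared reads are not given in those notes. The tables quantify wild type separately, so each group was tested within its own table.

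The deposited counts were tested with edgeR 4.0.16 (R 4.3.3; TMM scaling, filterByExpr, quasi-likelihood F test, Benjamini-Hochberg adjustment over all tested genes, threshold 0.05). SmoM2 was set against ShhN IUE over all 9 libraries, for genes whose summed wild-type counts plus 5 agreed within 0.1 (log2), using rounded means of the wild-type counts of both tables. The deposited FPKM values served for levels between genes. The functions were tested on simulated data. Replicates differed by more than counting noise (chi-square per degree of freedom 17.7 to 36.9), so none was merged.

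Alternatives were RLE and upper quartile scaling, other filters, DESeq2 1.42.0, limma 3.58.1 (voom), the replicate number as a block, each library left out, agreement within 0.2, and the 6 SmoM2 and ShhN IUE libraries alone. The genes, lists and tests were chosen with earlier results of these data known. All 36 genes are accounted for; genes past the threshold are given by library, with H2-K1, H2-D1, B2m, Irf3, Stat2 and Isg15 always. Of each list of further pathway genes, up to 4 genes past the threshold with the smallest adjusted p are named, and Ifnar1, Ifngr1 and Psmb5 always; a further gene of this rule is not reported here. Cell type markers are given as counts and sums, and the few named were chosen after their values were seen. Shared sequence was counted as 50-base stretches of a gene's longest coding GENCODE M21 transcript found in transcripts of another gene, on either strand. Promoters were taken from RefSeq, with the ISRE letters read from the promoter of Isg15.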

Additional observations from a re-analysis of the deposited data

Results flagged for a closer look

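For 3 of the 25 genes tested the difference between SmoM2 and ShhN IUE was itself past the threshold of edgeR's quasi-likelihood test, each lower in SmoM2, against 8.07% of all genes tested. The log2 difference of SmoM2 minus ShhN IUE was -0.98 for Irf7 (adjusted p = 0.0463), -0.36 for Stat2 (adjusted p = 0.0248) and -1.42 for Ifi44 (adjusted p = 0.0199). Of 15 alternatives, Irf7 lost its call in 8, Stat2 in 5 and Ifi44 in 4. The ShhN IUE and SmoM2 libraries also differ in how the groups were made, and any difference of litter or batch cannot be told apart from that of the intervention.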

How the results depend on the processing

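With edgeR's quasi-likelihood test no called gene among the 36 reversed its direction, and none fell against wild type under any alternative. In ShhN IUE 10 or 11 of the 36 genes rose under other scalings, filters and tools, and 7 to 12 when a library was left out, with 7 when that was library 3 of ShhN IUE or of wild type. Irf3, Irf7, Stat2, Ifit2, Ifi44 and H2-D1 kept their calls in all 13 alternatives. In SmoM2 3 or 4 rose, and 3 to 8 when a library was left out, 8 without wild-type library 2; Irf3, Stat2 and Ifit2 kept their calls in all 13. Of the genes lower in SmoM2 than in ShhN IUE, 0 to 4 were called when a library was left out, and the 6 libraries without wild type gave 4.

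Same-numbered deviations correlated at 0.264, -0.32 and -0.114 in ShhN IUE and at -0.08, -0.144 and 0.052 in SmoM2. These values show no sign that the replicate numbers pair the samples, but a shared litter or batch was not tested. With the replicate number as a block 8 genes rose in ShhN IUE, 3 in SmoM2, and 2 were lower in SmoM2 than in ShhN IUE; H2-K1, Oasl2 and Rtp4 lost their calls in ShhN IUE (adjusted p = 0.0592, 0.058 and 0.0984), and Irf7 lost that between SmoM2 and ShhN IUE (adjusted p = 0.068).

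Over all genes the calls with a library left out ran from 1567 to 2299 higher and 1684 to 2325 lower in ShhN IUE, from 733 to 1598 higher and 601 to 1412 lower in SmoM2, and from 483 to 1259 higher and 351 to 1080 lower in SmoM2 than in ShhN IUE. The lowest of these came without ShhN IUE library 1, SmoM2 library 3 and SmoM2 library 2. The cause of these shifts was not tested. Depth limits the genes under about 1 CPM: 6 of the 36 could not be tested in each comparison with wild type and 4 of the 29 with agreeing counts between SmoM2 and ShhN IUE, and counts of 3 to 35 lie behind Ifi44.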
